A study of Hemigymnus melapterus and Thalassoma lunare and Coris batuensis with 46 samples.

Results

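The transcripts described here were high in the forebrain of 1 of 5 wrasse species, Labrichthys unilineatus. They number 76 of the 26788 transcripts listed under ENSONIT identifiers, and 76 of the 1936 that had a total count of at least 100. They were chosen by their species levels. For each transcript the mean CPM (counts per 1000000 ENSONIT counts of a library) of each species was taken as log2(mean CPM + 10), the 5 values were sorted, and the largest gap between neighbours had to be at least 1 and to lie between Labrichthys and the next species. The height of Labrichthys over the other species is therefore what chose the members, and it is given below as a description, with no test. By this rule 3.93% of the 1936 transcripts were members.

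The libraries were made by 3′ tag sequencing, which reads the polyadenylated end of each RNA, from one 300 µm forebrain slice per female fish. Labrichthys unilineatus (8 fish), labelled a non-cleaner, was set against Coris batuensis (9 fish), also a non-cleaner, and 3 species labelled facultative cleaners. These were Thalassoma lunare (9 fish), Hemigymnus melapterus (9 fish) and Halichoeres melanurus (8 fish). The labels name no treatment and no age, and spreads below are between the libraries of a species. The rule leaves out another 3 libraries. Over the 1936 transcripts (log2(CPM + 10), a correlation across transcripts), all 43 libraries used were closest to the mean of their own species, with r from 0.751 to 0.906. The correlation was 0.626 with its own species and 0.855 with Thalassoma for the library labelled Halichoeres melanurus 2, and that labelled Thalassoma lunare 4 had 0.682 with its own and 0.889 with Halichoeres. Hemigymnus melapterus 4 had 6936 counts and r = 0.504 with its own species.

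Labrichthys unilineatus, the tubelip wrasse, feeds on live coral as an adult and belongs to the same group of wrasses as the cleaner fishes of the genus Labroides. Facultative cleaners pick parasites from other fishes only at times, and often only when young. The slice held parts of the pallium, which in teleosts takes part in learning, memory and emotional responses, with parts of the septum and striatum. No gene names come with the identifiers, so no role is given to any of these transcripts, the tissue could not be checked against marker genes, and members after the first 2 are called by their rank in the gap.

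Counts were few, and this sets what can be seen of a single transcript. Labrichthys libraries held 26996 to 53987 ENSONIT counts, against 14800 to 49935 in the 35 libraries of the other species, and 1 count in the median library was worth 29.5 CPM. The members had 6.12 to 104.5 counts per Labrichthys fish, with a median of 12.5. In the second deposited tables, which count on Ldim_g genes, 45.4% to 49.0% of reads were listed as not aligned in Labrichthys, against 48.8% to 62.5% in the other species, so Labrichthys stood at the low end of that measure. The part of this measure in the levels below was not tested. A slice holds many cell types, and fewer cells of a type and less RNA per cell cannot be told apart. ENSONIT counts amounted to 4.62% to 5.34% of the reads in those tables in Labrichthys and 4.38% to 5.46% in the other species, so in that measure the species overlapped. The median over all 1936 transcripts of Labrichthys minus the mean of the other 4 species was -0.01 on the log2(CPM + 10) scale.

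Most members were moderately abundant transcripts in Labrichthys and scarce elsewhere. Species means in Labrichthys ran from 174 to 2877 CPM with a median of 333 CPM, and the median of the next highest species was 77.8 CPM. The gap had a median of 1.89, with 35 members at 2 or more, 12 at 3 or more and 4 at 4 or more. In linear CPM, the median member was 3.97 times as high in Labrichthys as in the next species and the lowest was 2.05 times as high. The most abundant member, ranked 33 by its gap, was 31st of the 1936 transcripts by mean level in Labrichthys, so the set does not hold the most abundant of these. Just inside the threshold stood members with gaps of 1.03, 1.02 and 1.01, and just outside it were transcripts with Labrichthys above the rest and gaps of 0.97, 0.96 and 0.95. The last member had 268 CPM in Labrichthys and 128 CPM in Thalassoma, and the first transcript left out had 615 CPM in Labrichthys and 308 CPM in Thalassoma.

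**Figure D1:**
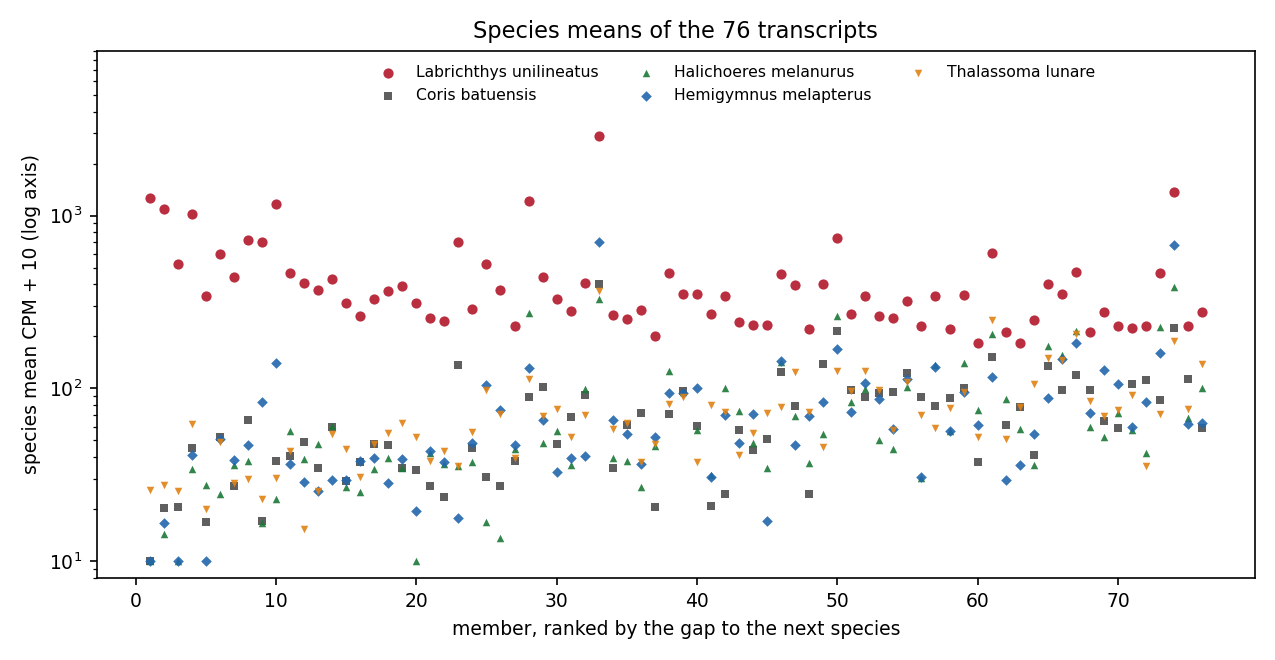
Species mean level (CPM + 10, log axis) of each of the 76 transcripts, ranked from the widest to the narrowest gap between Labrichthys and the next species, with 1 mark per species. The Labrichthys marks lie between 174 and 2877 CPM throughout, while the other species climb from near 0 at the first ranks to within a gap of 1.01 at the last.

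Summed over the members, the share of a library's counts separated Labrichthys from every other fish. The 8 Labrichthys libraries had 3.10% to 3.62% of their counts in these 76 transcripts, a mean of 3.34% ± 0.222 (SD, n = 8). Coris had 0.479% ± 0.0325 (SD, n = 9), Halichoeres 0.501% ± 0.0469 (SD, n = 8), Hemigymnus 0.551% ± 0.0597 (SD, n = 9) and Thalassoma 0.496% ± 0.0639 (SD, n = 9), and the highest of these 35 libraries had 0.637%. Without the first 2 members the share was 2.85% to 3.45% in Labrichthys and at most 0.635% elsewhere, so the sum did not rest on them. The sum follows from the rule, except in the 3 libraries that the rule left out. Those labelled Hemigymnus melapterus 4, Halichoeres melanurus 2 and Thalassoma lunare 4 had 0.389%, 0.481% and 0.547%, all below the lowest Labrichthys fish. In them 67, 63 and 66 of the 76 members lay below the lowest Labrichthys fish, where the other 35 libraries had 61 to 69.

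**Figure D2:**
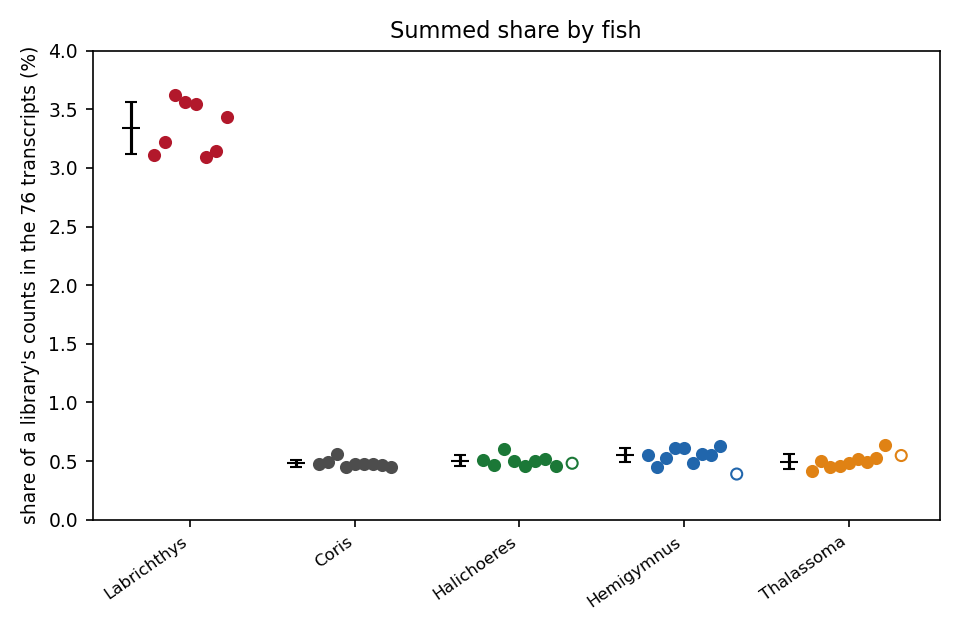
Share of each library's ENSONIT counts (percent) that fell in the 76 transcripts, 1 point per fish, with the mean and SD of each species beside its points; open points are the 3 libraries the rule left out. All 8 Labrichthys fish lie above 3.09% and all others, open points included, at or below 0.637%.

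The member with the widest gap, ENSONIT00000022423.1 (gap 5.61), had almost no counts elsewhere. Its level in the 8 Labrichthys fish was 427, 445, 586, 975, 1020, 1752, 2223 and 2557 CPM, in ascending order, a mean of 1248 ± 828 CPM (SD, n = 8). The 9 Coris, 8 Halichoeres and 9 Hemigymnus libraries had 0 counts of it, which allows up to 11.1, 11.4 and 12.3 CPM over each species (3 counts of the species' total, counting error only). Among 9 Thalassoma fish, 7 had none and the other two had 22.2 and 120 CPM, 7 counts in all. Labrichthys fish thus all lay above all others, though they differed among themselves up to 5.99 times.

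ENSONIT00000000964.1, the second (gap 5.32), was at a steadier level. It ranged from 741 to 1371 CPM in Labrichthys with a median of 1103 CPM, a mean of 1088 ± 199 CPM (SD, n = 8). Elsewhere it had 13 counts in 10 of 35 fish, with a highest single value of 60.6 CPM in a Thalassoma fish. Its means were 10.4 ± 15.6 CPM in Coris, 4.29 ± 12.1 CPM in Halichoeres, 6.68 ± 13.4 CPM in Hemigymnus and 17.5 ± 24 CPM in Thalassoma (SD, n = 9, 8, 9 and 9), all below the 29.5 CPM that 1 count was worth in the median library.

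The members ranked 3 to 10 had gaps from 4.36 to 3.06. The third averaged 511 ± 212 CPM in Labrichthys (SD, n = 8), with no count in Halichoeres or Hemigymnus and 10.7 ± 22.7 CPM in Coris and 15.4 ± 16.1 CPM in Thalassoma (SD, n = 9 each). The fifth averaged 333 ± 94.0 CPM in Labrichthys and 17.7 ± 21.8 CPM in Halichoeres, the next species (SD, n = 8 each), and had no count in Hemigymnus. Those ranked 6, 7 and 8 averaged 589 ± 200, 433 ± 113 and 708 ± 360 CPM in Labrichthys (SD, n = 8), and no other species averaged above 55.9 CPM. All 8 Labrichthys fish were above all 35 other fish in 1.76% of the 1936 transcripts. They were so in 9 of the first 10 members, from which nothing is read since the rule and the ranking used the same levels.

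The exception was the fourth, in which 1 Labrichthys fish did not show the high level. Its values in ascending order were 55.6, 537, 815, 1051, 1235, 1238, 1368 and 1803 CPM, a mean of 1013 ± 539 CPM (SD, n = 8). The lowest, 3 counts in Labrichthys unilineatus 8, fell among the other species, which ranged up to 129 CPM in a Thalassoma fish. That library had the most ENSONIT counts of all 43, 53987.

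**Figure D3:**
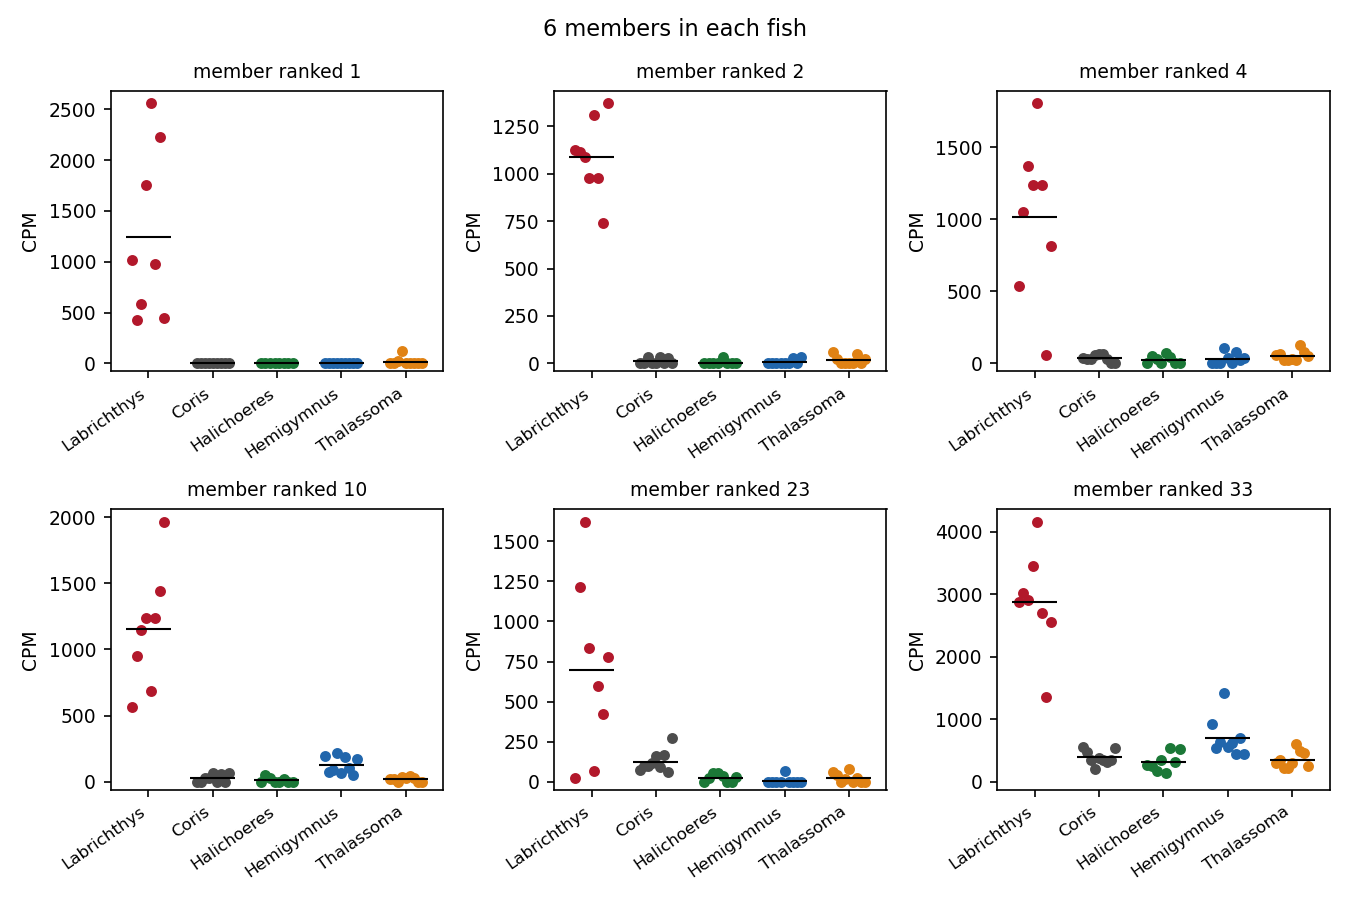
CPM of 6 members in each of the 43 fish, 1 panel per member, with a line at each species mean. Labrichthys fish spread from 427 to 2557 CPM in the member ranked 1 and from 741 to 1371 CPM in the member ranked 2, while a single Labrichthys fish at 55.6 CPM (rank 4) and a pair at 26.8 and 65.6 CPM (rank 23) sit among the other species.

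Few of the 76 had almost no counts outside Labrichthys. In 6 members no other species averaged as much as 1 count of the median library, and in these all 8 Labrichthys fish were above all other fish. In 47 members the next species lay between that level and 100 CPM, and in 23 it averaged 100 CPM or more. These groups, formed after the values were seen, had median gaps of 4.00, 2.01 and 1.34. A species with no count at all was found in 4 members, and in 72 all 5 species had counts. Over all members, the 2 sets of fish did not overlap in 33 of 76 (43.4%), against 1.76% of the 1936 transcripts, a share from which nothing is read since the rule used the same levels. Non-overlap was met by 26 of the 35 members with a gap of 2 or more and by 7 of the 41 with a narrower gap. In 43 members at least 1 Labrichthys fish therefore lay within the range of the others, and in the member ranked 64 none of the 8 exceeded the highest other fish, a Thalassoma at 395 CPM.

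The 5 members with the highest Labrichthys levels were those ranked 33, 74, 1, 28 and 10, and together they held 23.5% of the Labrichthys counts of the set. The member ranked 33 had 1352 to 4164 CPM in Labrichthys, median 2888 CPM, against 438 to 1421 CPM in Hemigymnus, the next species. Its mean was 2877 ± 798 CPM in Labrichthys (SD, n = 8) and 698 ± 308 CPM in Hemigymnus (SD, n = 9), with 394 ± 114 CPM in Coris, 318 ± 149 CPM in Halichoeres and 357 ± 135 CPM in Thalassoma. It was thus abundant in all 5 species, and 7 of the 8 Labrichthys fish exceeded every other fish.

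Hemigymnus also came next for the members ranked 10 and 74. The member ranked 10 had 564 to 1963 CPM in Labrichthys, median 1190 CPM, and 52.3 to 219 CPM in Hemigymnus, median 103 CPM, while Coris, Halichoeres and Thalassoma averaged 27.8, 12.8 and 20.1 CPM. The member ranked 74 stood close to the threshold, with 1363 ± 296 CPM in Labrichthys (SD, n = 8) and 664 ± 179 CPM in Hemigymnus (SD, n = 9). For the member ranked 28 the next species was Halichoeres, at 262 ± 106 CPM, where Labrichthys had 1204 ± 295 CPM (SD, n = 8 each) and all its fish were above all others. No single species filled the second place. The next species was Coris in 19 members, Halichoeres in 18, Hemigymnus in 17 and Thalassoma in 22 (25%, 23.7%, 22.4% and 28.9%). Over all 1936 transcripts the highest of these 4 species was Coris in 26%, Halichoeres in 22.8%, Hemigymnus in 24.9% and Thalassoma in 26.3%.

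The rule used the mean of the Labrichthys fish and not their spread, so the variation among the 8 fish is a further property of the members. Their coefficient of variation (CV, SD over mean) had a median of 40.1%, from 17.4% to 78.3%, where counting alone would give a median of 28.9%. In 27 members (35.5%) the CV exceeded 1.5 times that from counting, and in 16 it was below it. Among the 741 other transcripts with at least 6.12 counts per Labrichthys fish, the lowest mean of a member, 30.5% exceeded 1.5 times. These transcripts shared only that minimum with the members, so depth was not matched. No test of the difference between these shares was made, and nothing is read from how they compare.

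The widest spread relative to counting was that of ENSONIT00000022423.1, with a CV of 66.4% against 15.0% from counting. The member ranked 23 followed, with 26.8, 65.6, 426, 600, 778, 833, 1215 and 1620 CPM in the 8 fish. Its 2 lowest values were 1 count in Labrichthys unilineatus 1 and 2 counts in Labrichthys unilineatus 6, so these 2 fish were within the range of the cleaner species and the other six above all other fish. ENSONIT00000000964.1 was by contrast among the steady members, with a CV of 18.3% against 16.0% from counting. The fish that was low did not recur as a rule, since each of the 8 fish was the lowest in 3 to 13 members and the highest in 4 to 15.

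The members ranked 4 and 33 varied together over the 8 Labrichthys fish (Pearson r = 0.929 on the log2(CPM + 10) scale, n = 8, the highest of 28 pairs among the 8 members with the widest spread relative to counting). Both were lowest in Labrichthys unilineatus 8 and highest in Labrichthys unilineatus 6, and without Labrichthys unilineatus 8 the correlation was 0.618 (n = 7). The other 27 pairs ranged from -0.691 to 0.743. These points share their libraries, and the pairs were picked after the spreads were seen.

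**Figure D4:**
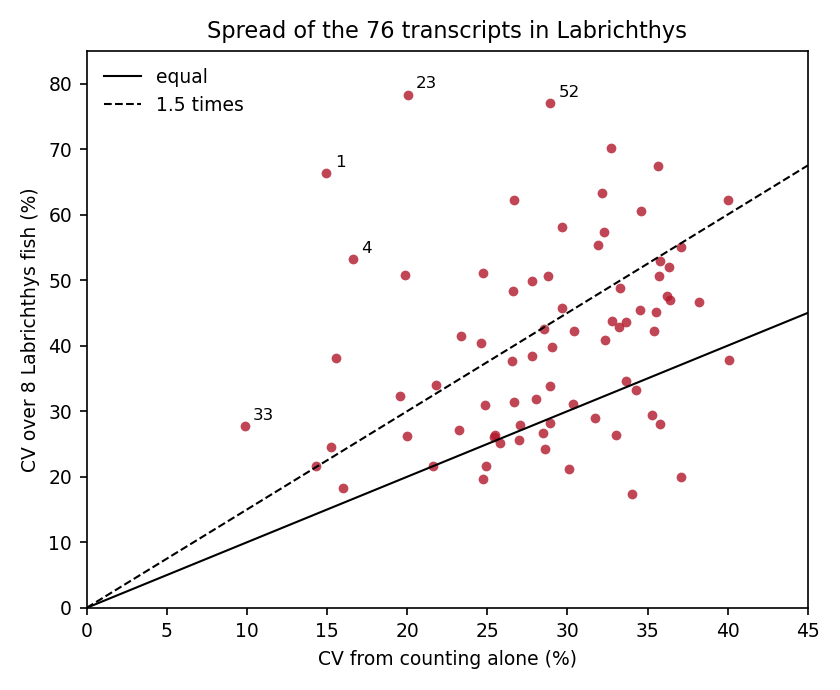
CV over the 8 Labrichthys fish (percent) of each of the 76 transcripts against the CV that counting alone would give (percent), with lines at equality and at 1.5 times. The members ranked 1, 4, 23, 33 and 52 are numbered, and 27 points lie above the dashed line.

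Whether the members also differed among the 4 species in which they were low was tested, with Labrichthys set aside. The rule bears on this in both of its conditions. It keeps the gaps among these 4 species below that to Labrichthys, and its minimum of 100 counts includes the Labrichthys counts. Over the 35 fish only 14 of the 76 had 100 counts or more, and 62 were among the 1936 through their Labrichthys counts. The members' median there was 55 counts, against 152 for all 1936 transcripts. Counts of calls among the members are therefore given as a description, and nothing is read from how they compare with all transcripts. An edgeR quasi-likelihood F test called 24 of the 76 members different among the 4 species at an adjusted p below 0.05 (31.6%), where it called 63.0% of all transcripts. Of these 24, 7 had 100 counts or more in the 35 fish. Which species was highest was not counted over all called transcripts, so nothing is read from the split that follows. The highest of the 4 was Thalassoma in 9 of the 24, Hemigymnus in 6, Halichoeres in 5 and Coris in 4. Among these, Hemigymnus had the highest mean in the member ranked 9, at 73.2 ± 41.5 CPM (SD, n = 9) where the others averaged at most 13 CPM (edgeR adjusted p = 0.000111), and in that ranked 10 (edgeR adjusted p = 1.67e-05), on 27 and 48 counts over the 35 fish. The member ranked 25 averaged 94.1 and 87.6 CPM in Hemigymnus and Thalassoma, and 20.9 and 6.7 CPM in Coris and Halichoeres (edgeR adjusted p = 1.4e-06). Like those ranked 9 and 10, it had fewer than 100 counts over the 35 fish and was tested only through Labrichthys. With only the 1481 transcripts that had 100 counts in the 4 species tested, and only those species in the fit, 7 of the 14 members were called, beside 68.7% of the 1481. No difference past the threshold was found in 52 members, which at these counts does not show that they were alike.

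Labrichthys and Coris share the label of non-cleaner, and Coris was contrasted with the mean of the 3 cleaner species. This cannot decide whether Coris leaned towards Labrichthys. The rule kept no transcript in which Coris came second and lay nearer to Labrichthys than to the cleaners. The shares below are a description, and nothing is read from how members compare with all transcripts. The contrast called 6 members higher in Coris (7.89%), beside 18.4% of all 1936 transcripts, and 5 lower (6.58%), beside 14.5%. These calls used the edgeR quasi-likelihood test at an adjusted p below 0.05. The log2 fold changes of the 76 had a median of -0.01, from -2.34 to 2.53, and 37 were above 0; the median over all transcripts was 0.00. Of the 11 called members, 8 had fewer than 100 counts in the 4 species and were tested through their Labrichthys counts. Among the 14 members with 100 counts there, tested among the 1481 such transcripts with only those species in the fit, 0 were called higher, beside 20.7%, and 2 lower, beside 15.5%. The members called lower were those ranked 28 and 74 (edgeR adjusted p = 0.0192 and 0.0217). At an unadjusted p below 0.05, 0 of the 14 were higher and 4 lower. The share of the 1481 at that unadjusted threshold was not computed, so nothing is read from this split. Cleaning status differs here only between species, 1 non-cleaner against 3 cleaners, so the p-values compare fish of these species.

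The largest rise in Coris was in the member ranked 23, with 127 ± 64.9 CPM in Coris (SD, n = 9), from 59.0 to 270 CPM with a median of 97.2 CPM. Halichoeres averaged 25.7 ± 24 CPM (SD, n = 8), Hemigymnus 7.71 ± 23.1 CPM and Thalassoma 25.6 ± 30.4 CPM (SD, n = 9 each). Coris over the cleaners came to 2.53 on the log2 scale, with an edgeR adjusted p of 0.000116. Its approximate SE, the fold change divided by the square root of the F statistic, was 0.54. The member had 50 counts in the 4 species, so it was tested only through its 203 counts in Labrichthys. This is also the member in which 2 Labrichthys fish were low, so all Coris fish lay below the other six Labrichthys fish, and 8 of 9 above both low ones. The other members higher in Coris were those ranked 49, 36, 72, 56 and 54, with log2 fold changes of 1.37, 1.28, 1.24, 1.10 and 1.04 and edgeR adjusted p from 0.0109 to 0.0434. All of them had fewer than 100 counts in the 4 species and, like the member ranked 23, were tested only through Labrichthys. With no filter on low counts, those ranked 36, 72, 56 and 54 were not called (edgeR adjusted p = 0.105, 0.0526, 0.159 and 0.138). Those ranked 23 and 49 still were. The member ranked 56 was also not called without Coris batuensis 10, the shallowest library used (edgeR adjusted p = 0.0724).

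The largest fall in Coris was in the member ranked 42, at 14.6 ± 24.2 CPM in Coris (SD, n = 9). Halichoeres averaged 91.1 ± 60.2 CPM (SD, n = 8), Hemigymnus 60.1 ± 39.8 CPM and Thalassoma 63.1 ± 29.6 CPM (SD, n = 9 each). Coris over the cleaners came to -2.34 on the log2 scale (approximate SE 0.57, from F in the same way), with an edgeR adjusted p of 0.00073. It had 66 counts in the 4 species and, like the member ranked 23, was tested only through Labrichthys. Labrichthys had 332 ± 132 CPM (SD, n = 8) of it. The members ranked 48, 28, 73 and 74 were also lower in Coris, with log2 fold changes of -1.76, -1.0, -0.91 and -0.71 and edgeR adjusted p from 0.0138 to 0.0409. That ranked 48 also had fewer than 100 counts in the 4 species and was tested only through Labrichthys. With no filter on low counts, those ranked 48, 28, 73 and 74 were not called (edgeR adjusted p = 0.0929, 0.0784, 0.162 and 0.0563). That ranked 42 still was. For the members ranked 73 and 74 not all cleaner species were above Coris, which averaged 75.4 and 213 CPM where Thalassoma averaged 61 and 179 CPM. The member ranked 73 was not called by DESeq2 (adjusted p = 0.0635) or in the fit of the 1481 transcripts (edgeR adjusted p = 0.0501), and with all 46 libraries those ranked 36 and 74 were not called (edgeR adjusted p = 0.0529 and 0.0527).

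**Figure D5:**
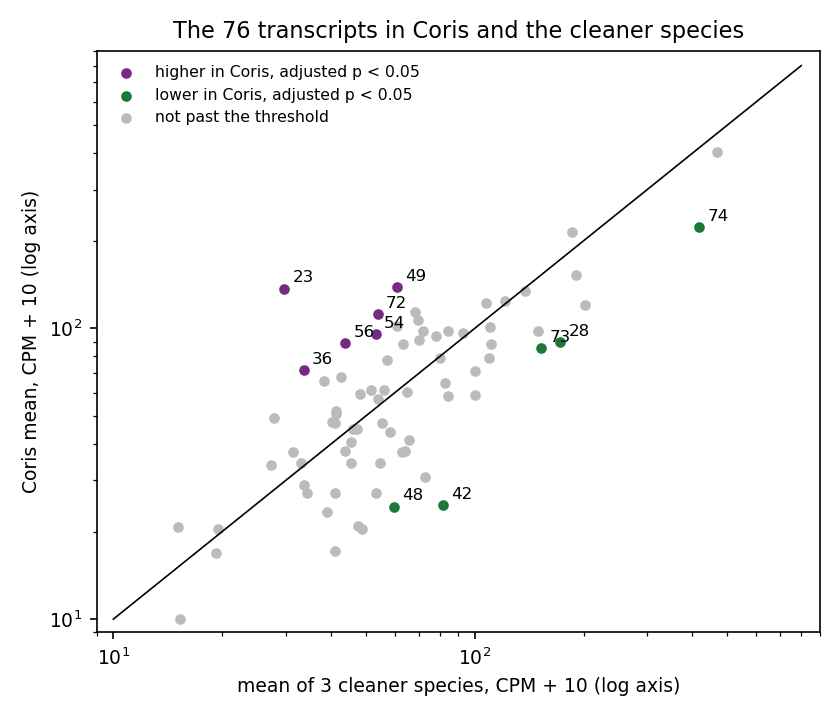
Mean level of the 76 transcripts in Coris (y axis) against the mean of the 3 cleaner species (x axis), both as CPM + 10 on log axes, with the line of equality. The 6 members higher in Coris and the 5 lower are coloured and numbered by rank, and the member ranked 23 lies farthest above the line.

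The same rule applied to each species put Labrichthys alone above in 76 transcripts, Thalassoma in 73, Hemigymnus in 48, Coris in 43 and Halichoeres in 33. The minimum of 100 counts includes the counts of the high species, and the species differed in depth. Mean ENSONIT counts per library were 43303 in Thalassoma, 37892 in Labrichthys, 32761 in Halichoeres, 29918 in Coris and 26996 in Hemigymnus. The part of depth in these tallies was not tested. The order of Labrichthys and Thalassoma depended on the setting. TMM scaling gave 80 for Labrichthys and 84 for Thalassoma, and leaving out Labrichthys unilineatus 8 gave 66 and 73. Leaving out each of the 43 libraries in turn gave 66 to 78 for Labrichthys, 64 to 74 for Thalassoma and at most 49 for any other species. Labrichthys was alone below the others in 42 transcripts (2.17%). It was the highest species in 19.8% of all 1936 transcripts, near an equal share, and Thalassoma was in 21.3%. In the second tables the count depended on the scaling. Of 1755 Ldim_g genes with a total count of at least 100, 67 (3.82%) set Labrichthys alone above, against 43 for Hemigymnus, 42 for Thalassoma, 33 for Halichoeres and 17 for Coris. With CPM over all reads of those tables Labrichthys had 41, of which 37 were among the 67. CPM values were lower there against the same pseudocount, so the 2 counts are not like for like. The other species were not counted in that setting. The share of reads in Ldim_g genes was 4.73% to 6.24% in Labrichthys and 3.70% to 5.95% in the other species. Its part in these counts was not tested. The fish and reads are the same in both tables and the identifiers are not paired between them, so whether the Ldim_g genes match the members cannot be told.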

How the data were processed

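The deposited values are raw counts, whole numbers that were not normalized, in 2 tables per fish. One lists 26788 ENSONIT transcripts and an unnamed line at 0. The other lists 28134 Ldim_g genes and 5 lines for reads given to no gene, which held 95.2% of its reads and were left out of gene totals. Trimming and alignment tools were cutadapt 2.8, BWA and SAMtools, per the submitters' processing notes. Neither reference nor counter is stated in the labels. Every species shares 1 set of identifiers, so a count can reflect alignment as well as abundance. The labels mention PCR but no molecular identifiers, so intervals cover counting error only.

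From these deposited counts, CPM was computed over the ENSONIT rows of 43 libraries. The members and tests were chosen with earlier results of these data known. Named by identifier are the first 2 members in the gap, and by rank those to 10, the 5 most abundant, those at the threshold, and those called in the Coris contrast. The members ranked 4, 23 and 33 are dwelt on, and those ranked 9, 25, 52 and 64 named, after their values were seen. Tests used R 4.3.3 and edgeR 4.0.16 (TMM, quasi-likelihood, 1 coefficient per species, 1936 transcripts with a total count of at least 100, Benjamini-Hochberg), tested on simulated data. DESeq2 1.42.0 was an alternative. Among 190 pairs of libraries within species none was identical.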

Additional observations from a re-analysis of the deposited data

Results flagged for a closer look

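Dixon's test for a single outlying value (95% level) was applied to 120 groups of fish. A library stood off from the others of its species in 17 cases. The nominal rate of about 1 in 20 groups is for normally spread values. Many of these groups are of members near 0 counts outside Labrichthys, and groups with no count at all cannot be flagged. The 17 cases are therefore not read against that rate. None of the 17 was a Labrichthys fish, and several rest on 1 or 2 counts.

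In the summed share of the 76 transcripts, Coris batuensis 3 had 0.557%, Halichoeres melanurus 4 had 0.602% and Thalassoma lunare 10 had 0.637%, each above the rest of its species. Among the libraries used, Coris batuensis 10 had the fewest ENSONIT counts, 14800. Hemigymnus melapterus 1 had the lowest share of reads not aligned among the libraries used of its species, 48.8%.

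For single members, Thalassoma lunare 5 had 120 CPM of the member ranked 1 and 60.1 CPM of that ranked 8. Halichoeres melanurus 6 had 34.3 CPM of the member ranked 2, and Coris batuensis 2 had 64.3 CPM of that ranked 3. The member ranked 6 was high in Halichoeres melanurus 8, at 62.1 CPM, and in Hemigymnus melapterus 10, at 137 CPM. Hemigymnus melapterus 2 had 115 CPM of the member ranked 7, Hemigymnus melapterus 6 had 69.4 CPM of that ranked 23 and Hemigymnus melapterus 5 had 1421 CPM of that ranked 33. Coris batuensis 10 had 67.6 CPM of the members ranked 42 and 48, 1 count each. The member ranked 74 reached 1064 CPM in Hemigymnus melapterus 10.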

How the results depend on the processing

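How many transcripts set Labrichthys alone above followed the threshold on counts: 175 with a total of at least 50, 549 with no minimum, 25 with at least 200, and 35 with a gap of 2 or more. Other scalings, pseudocounts, species medians and all 46 libraries gave 65 to 85 (85 with all 46). Leaving out each Labrichthys fish gave 66 to 71, of which 64 to 71 were among the 76, and 56 members were found each time. CPM over all reads of the second tables, which are about 20 times as many, gave 41 Ldim_g genes in place of 67. The pseudocount was kept at 10 while CPM values were lower, so this setting is not like for like. The cause of the change was not tested. The filterByExpr filter tested 701 transcripts, 18 of them members. It gave 303 for Coris against cleaners, with 1 member higher and 3 lower, and 530 for any difference among the 4 species, with 9 members. No filter tested 25207 transcripts and gave 1362 (1079 higher and 283 lower, against 357 and 281), with 2 members higher and 1 lower. For any difference it gave 4222, with 20 members. The cause was not tested. The DESeq2 test gave 6 members higher and 4 lower, beside 362 and 236 of all 1936 transcripts. A minimum of 100 counts in the other 4 species, added after seeing the data, left 14 members, with 0 higher and 2 lower in Coris and 7 different among the 4 species. Of the 1481 transcripts tested there, 306 were higher, 229 lower and 1017 different. For the 11 members called in Coris, 69 of 83 values recomputed under an alternative kept the call, 14 did not (8 of these with no filter) and 0 changed direction. A member that an alternative did not test has no value there. Under filterByExpr and under the minimum of 100 counts, only those ranked 28, 73 and 74 of the 11 were tested. Sample numbers recur across species but the labels state no pairing. Same-numbered fish did not deviate together (mean r = -0.0094 over 73 pairs, 1 of 43 libraries closest to its own number). A replicate block gave 612 calls among 1936 transcripts in place of 638 (346 higher and 266 lower), with 5 members higher and 5 lower. For any difference among the 4 species it gave 1177, with 24 members. Members had a median of 12.5 counts per Labrichthys fish (6.12 to 104.5), and levels of 1 to 3 counts in single fish elsewhere cannot be ordered.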
